A study of Caenorhabditis elegans with 2 samples.

Results

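The regions described here are the CEBP-2 binding regions whose peak summit lay in a coding exon and away from promoters, 271 of the 1374 regions in the deposited list of peaks called on both replicates together (the main list). They were chosen by position alone. Listed peaks sharing at least 1 bp were joined into a region, which took the summit of its peak with the highest signal. Regions overlapping a gene for a transfer RNA, small nucleolar RNA or small nuclear RNA were left out. So were regions with a summit in a promoter window, and the summit had to lie in coding sequence. The window reached 1000 bp upstream and 200 bp downstream of the outermost annotated 5′ end of each protein-coding gene. Internal 5′ ends of other transcripts had no window, so some regions may lie near an alternative promoter. Of 367 summits in a coding exon, 7 were dropped at small RNA genes and 89 in promoter windows. The other 867 regions outside small RNA genes served as the comparison, of which 347 lay in promoter windows, 192 in introns, 278 between genes and 50 in untranslated exon sequence.

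The data came from chromatin immunoprecipitation and sequencing (ChIP-seq) of whole young adult Caenorhabditis elegans, 64 h old, grown from starved L1 larvae. All worms were of strain OP331, an unc-119(ed3) background carrying the integrated transgene wgIs331, in which C48E7.11 (cebp-2) bears TY1, EGFP and 3xFLAG tags beside a rescuing unc-119(+) gene, and the tagged protein was recovered with an antibody against GFP. There was 1 group of 2 biological replicates, each a population of whole animals, so binding could not be assigned to a tissue. A control experiment that the labels name was not used here, and the files hold peaks without read counts, so depth is unknown. The tests below treat regions as independent. Regions are not biological replicates, and the p-values measure no spread between worm populations.

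CEBP-2 belongs to the C/EBP family of basic leucine zipper (bZIP) proteins, which bind DNA as dimers at short palindromic sites and act in metabolism, stress and immune responses in many animals. Transcription factors usually act from promoters and enhancers. In the compact genome of C. elegans coding exons lie close to such elements and are richer in G and C than introns.

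The 271 coding-exon regions lay in 250 genes. Single listed peaks of 270 bp made up 260 of them, and 11 were wider joined regions. The median region had 88.1% of its bases in coding exons (quartiles 71.7 and 100%), and the summits lay mostly well inside the exon, with quartiles of 51.5 and 176 bp for the distance to its nearest edge. The exons were of 339 bp at the median, while the median coding base that could hold such a summit lay in an exon of 271 bp. None of the summits lay in the coding sequence of more than 1 gene. A second genomic copy of the summit window (at least 90% identical over at least 80 bp) existed for 6 regions, in which the source of the reads is uncertain. They were both regions of vit-2 and those of gpd-3, stdh-1, col-43 and col-125.

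The summit windows of 4 of the 6 strongest regions are shown first, so that their bases can be set beside those of the windows richest and poorest in G and C. Each is the window of 50 bp to either side of the summit in build ce11, read 5′ to 3′ on the strand of the gene, and capitals mark runs of 4 or more G or C bases.
Y43B11AR.3 (chrIV:7083462-7083562, minus strand): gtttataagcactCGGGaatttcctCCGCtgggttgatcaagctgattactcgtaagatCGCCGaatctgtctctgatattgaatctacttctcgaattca
pks-1 (chrX:5429483-5429583, plus strand): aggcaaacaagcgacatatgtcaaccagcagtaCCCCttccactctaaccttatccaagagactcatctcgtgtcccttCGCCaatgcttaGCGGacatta
F25B5.5 (chrIII:5943923-5944023, minus strand): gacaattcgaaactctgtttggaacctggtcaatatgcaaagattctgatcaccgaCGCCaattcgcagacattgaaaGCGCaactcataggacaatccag
lin-12 (chrIII:9060386-9060486, minus strand): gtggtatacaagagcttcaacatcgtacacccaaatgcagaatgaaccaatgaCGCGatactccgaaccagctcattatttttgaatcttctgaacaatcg
These windows held 42.6, 48.5, 44.6 and 41.6% G and C in this order. The windows of lmd-2 (35.6%) and F25H2.12 (39.6%), the others among the 6 strongest, were poorer and are not shown. With the same capitals, the windows shown next are 2 of the 3 of highest G and C content, from the cuticle collagen genes col-43 and col-125, and the 2 of lowest, from wnk-1, which encodes a WNK protein kinase, and ufd-2, which encodes a ubiquitin chain elongation factor.
col-43 (chrV:8050224-8050324, minus strand): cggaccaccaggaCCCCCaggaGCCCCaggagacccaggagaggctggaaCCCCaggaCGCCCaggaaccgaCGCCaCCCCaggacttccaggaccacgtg
col-125 (chrIV:11226012-11226112, plus strand): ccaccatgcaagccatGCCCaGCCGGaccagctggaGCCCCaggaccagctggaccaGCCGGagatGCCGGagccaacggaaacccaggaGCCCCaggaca
wnk-1 (chrIV:9210425-9210525, plus strand): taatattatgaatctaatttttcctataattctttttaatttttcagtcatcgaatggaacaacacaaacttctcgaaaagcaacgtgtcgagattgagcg
ufd-2 (chrII:8065103-8065203, plus strand): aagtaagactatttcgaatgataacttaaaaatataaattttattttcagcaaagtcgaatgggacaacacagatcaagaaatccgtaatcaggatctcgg
The window of col-43 had 70.3% G and C, with 27 bases in such runs, and that of col-125 had 68.3%, with 29. The window of col-50, not shown, also had 70.3%. The repeated glycine and proline codons of collagens are G and C rich. The windows of wnk-1 (30.7%) and ufd-2 (31.7%) held no such run. Where a summit lies near an exon edge its window takes in flanking sequence. How much of the wnk-1 and ufd-2 windows was coding was not measured, so their low content may not be that of coding sequence.

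Few of the coding-exon regions were found again by either replicate alone. Each replicate has its own thresholded list, made by the authors with a limit on the irreproducible discovery rate (IDR, which rates the agreement of peak ranks between repeats), and it is much shorter than the main list, with 254 and 386 peaks. The own list of replicate 1 held 19 of the 271 (7.01%, 95% Wilson interval 4.53 to 10.7%), against 15.2% of all 1138 regions outside small RNA genes and 154 of the 867 other regions (17.8%). For replicate 2 it was 33 (12.2%, 8.80 to 16.6%), against 21.6% of all and 213 of the others (24.6%). Odds ratios against the other regions were 0.349 (Fisher's exact test, two-sided, p = 6.7e-06) and 0.426 (p = 9.6e-06). Over both lists the mean was 9.59% ± 3.65 (SD, n = 2) for coding-exon regions and 21.2% ± 4.81 for the others.

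**Figure D1:**
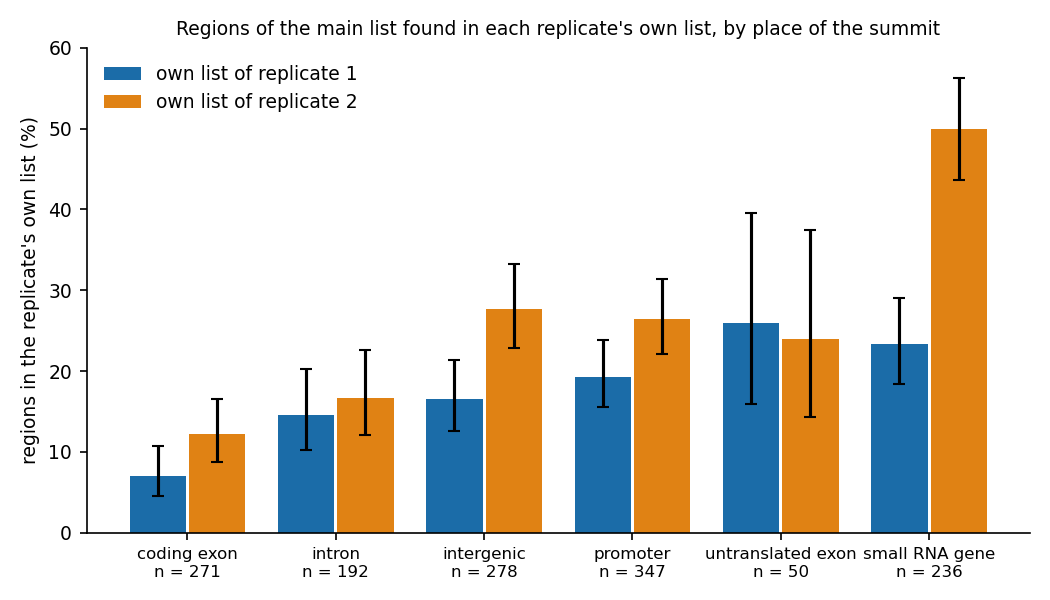
Share of main-list regions that overlap the own thresholded list of replicate 1 (blue) and replicate 2 (orange), in percent, by place of the summit. Bars are shares and error bars 95% Wilson intervals over regions. Regions at small RNA genes, left out of the comparisons, are drawn last. Coding-exon regions had the lowest share in both lists, 7.01% and 12.2%.

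Altogether, 6 coding-exon regions were in both own lists, 13 in that of replicate 1 only, 27 in that of replicate 2 only and 225 (83.0%) in neither. Of the other regions 67.5% were in neither. The second list on both replicates together, which the authors call conservative, held 132 of the coding-exon regions (48.7%), against 59.3% of all and 62.6% of the other regions (exact p = 5.3e-05).

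The shortfall was seen against promoter and intergenic regions in both replicates, and against introns in replicate 1. Against promoter regions, of which 19.3% and 26.5% were in the own lists, Fisher's exact test gave adjusted p of 3.3e-05 and 3.1e-05 over 15 comparisons. Intergenic regions had 16.5% and 27.7% (exact adjusted p = 0.0012 and 3.1e-05). Intronic regions had 14.6% in replicate 1 (exact adjusted p = 0.018) and 16.7% in replicate 2 (exact adjusted p = 0.20). The conservative list held 49.5% of intronic regions, and the difference from 48.7% did not pass (exact adjusted p = 0.92, odds ratio 0.970).

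Coding-exon regions also had lower signal in the main list, and presence in an own list rose steeply with signal. The signal value comes from the authors' peak caller in a unit that is not stated, so it serves only to order regions within a list. Its quartiles were 66.6, 72.7 and 81.0 for coding-exon regions, with a highest value of 158.8, and 69.1, 76.9 and 92.6 for the others, with a highest value of 289.4. Above the median of the whole main list, 77.6, lay 35.1% of coding-exon regions and 47.3% of the others (Fisher's exact test, p = 4.5e-04). The share did not differ past the threshold from introns (32.3%, exact adjusted p = 0.59), and it was lower than in promoters (53.3%, 3.1e-05) and between genes (50%, 0.0010).

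When the 1138 regions were divided by signal into 4 equal groups, 87, 73, 78 and 33 coding-exon regions fell in the lowest to the highest group. The share present in at least 1 own list was 4.60, 5.48, 16.7 and 75.8% in this order, and 7.07, 8.53, 21.4 and 81.7% for the other regions. Coding-exon regions were lower in each group, with intervals that overlapped. In all, 46 coding-exon regions (17%) and 282 others (32.5%) were in at least 1 own list, an odds ratio of 0.424 (Fisher's exact test, p = 5.0e-07). With the log2 signal as a covariate in a logistic regression the odds ratio was 0.757 (95% interval 0.494 to 1.16, likelihood ratio test, p = 0.20, n = 1138 regions). For the own lists of replicates 1 and 2 taken singly it was 0.816 (0.463 to 1.44, p = 0.47) and 0.883 (0.554 to 1.41, p = 0.60, n = 1138 regions each). The intervals leave room for a lower and for an equal share at equal signal. With peaks not joined into regions the odds ratio was 0.589 (0.406 to 0.855, likelihood ratio test over n = 1181 peaks, p = 0.0042). Overlapping peaks were then counted singly and can share an own-list region, so they are not independent and the interval may be too narrow. Whether a shortfall passed the threshold at equal signal depended on that choice.

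**Figure D2:**
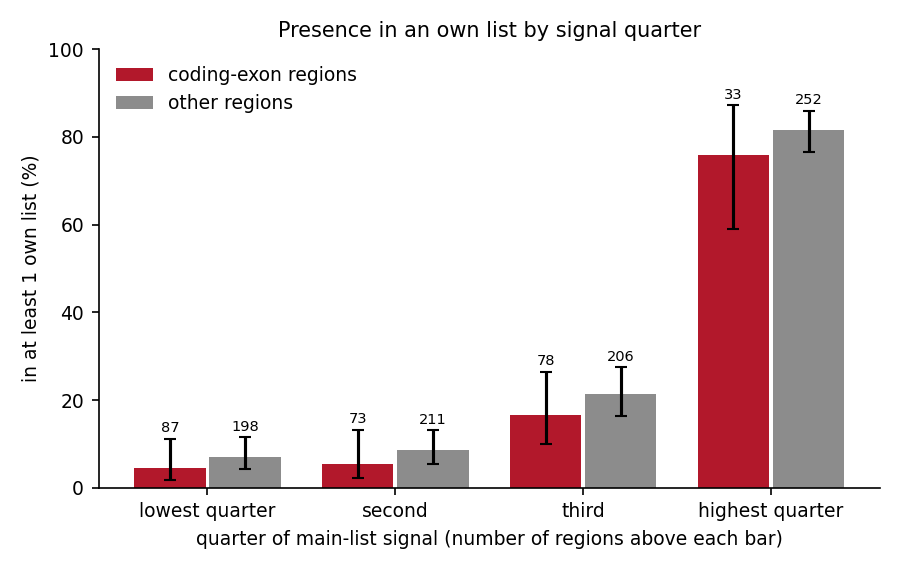
Share of regions present in at least 1 replicate's own list, in percent, in 4 equal groups by main-list signal, for coding-exon regions (red) and other regions (grey). Error bars are 95% Wilson intervals and the number above each bar is the number of regions. In the lowest group the shares were 4.60 and 7.07%, and in the highest 75.8 and 81.7%.

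Most of the coding-exon regions absent from the own lists had been seen in each replicate, below the threshold. The ranked lists behind the own lists hold 52508 and 70327 peaks, each with a score that reaches 1000 for the most reproducible peaks, and the thresholded lists began at a score of 830, which stood for a global IDR of 0.010. The thresholded lists are shorter than that score alone would give, as the ranked lists hold 296 and 465 peaks at 830 or more for 254 and 386 listed peaks. In replicate 1, 236 of the 271 overlapped a ranked peak with a score under 830, 16 (5.90%) overlapped none, and none overlapped a peak past that score without being in the list. The others had 694, 19 and 0 of 867. In replicate 2 the numbers were 233, 5 (1.85%) and 0, against 639, 15 and 0 for the others. The median rank by signal was 2087 in replicate 1, within the top 3.97% of its ranked list, and 1320 in replicate 2 (1.88%). It was 1214 (2.31%) and 1044 (1.49%) for the other regions. The median score was 238 in replicate 1 and 494 in replicate 2, against 350 and 532 for the others. Within each replicate, the coding-exon regions had a median ranked-list signal of 29.0 and 45.6, where the peaks of the own lists had 54.2 and 68.5.

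**Figure D3:**
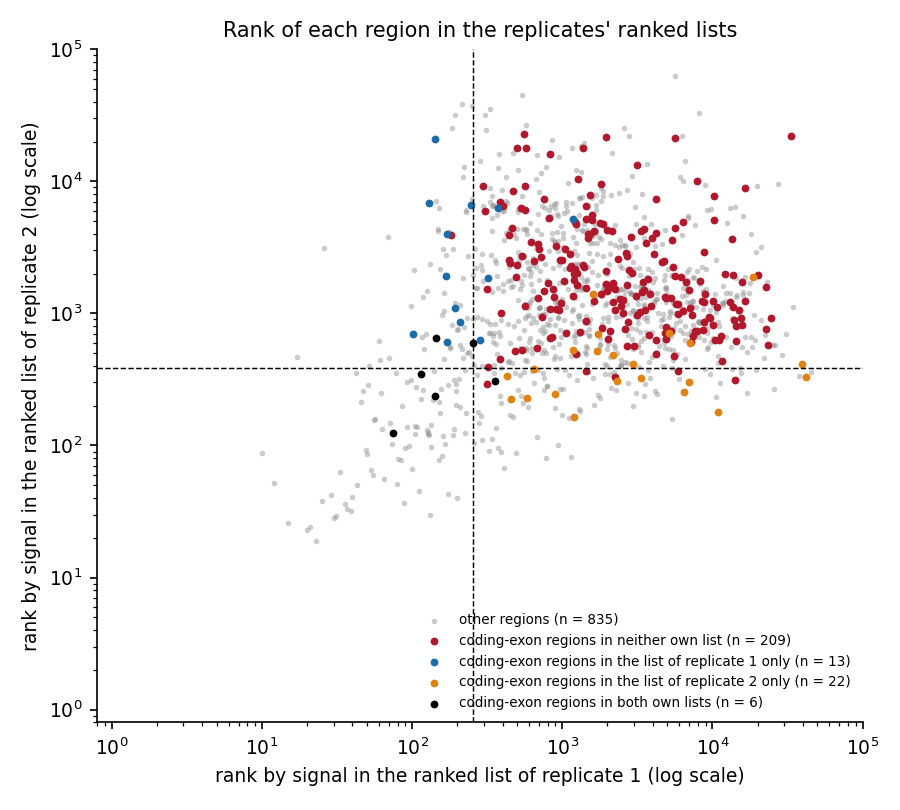
Rank by signal of each region's peak in the ranked list of replicate 1 (x) and replicate 2 (y), both on log scales, for the regions with a peak in both. Grey points are the 835 other regions, coloured points the 250 coding-exon regions by presence in the own lists, and dashed lines stand at 254 and 386, the number of peaks in each own list. Most red points, the 209 in neither own list, lie above and to the right of both lines.

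The 6 coding-exon regions in both own lists lay in Y43B11AR.3, lmd-2, pks-1, F25B5.5, dos-3 and vit-6. Their main-list signal ran from 97.2 to 159, while that of the 225 in neither list ran from 33.1 to 109. The strongest of all 271 was in the first of 6 coding exons of Y43B11AR.3, WBGene00021544, at chrIV:7083377-7083646, with a signal of 158.8. It ranked 75 in replicate 1 and 125 in replicate 2, with a score of 1000 in both. Its summit lay 204 bp from the annotated 5′ end, 4 bp beyond the promoter window, so it is also the region closest to that limit.

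The next by signal were in lmd-2 (128.4, chrI:4645316-4645585), which encodes a protein with a LysM domain, and pks-1 (128.0, chrX:5429398-5429667). The latter gene encodes a very large polyketide synthase of 30 coding exons, and the region lay in exon 22. F25B5.5 (115.2, chrIII:5943838-5944107) held a region in its last coding exon, as did dos-3 (106.9, chrIII:835929-836198), a gene for a Notch ligand-like protein. The region of vit-6 (97.2, chrIV:8266079-8266348) lay in the last of 5 exons of this yolk protein gene. All of these had scores of at least 852 in replicate 1 and 875 in replicate 2.

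Several strong regions were recovered by 1 replicate only. The region at chrIII:9060301-9060570 in lin-12, the gene of a Notch receptor, had a signal of 113.1 and a score of 1000 in replicate 1 and of 407 in replicate 2. It lay at 99.3% of the coding sequence. The region in picd-1 (106.5, chrV:117358-117627) went the same way, with scores of 979 and 207. The opposite pattern was seen in F25H2.12 (114.7, chrI:10570053-10570322; scores of 594 and 949), T28F4.4 (108.7, chrI:7492947-7493216; 662 and 1000), Y48G1BM.10 (106.0, chrI:231892-232161; 388 and 1000) and rsp-8 (105.8, chrIII:11830564-11830833; 525 and 1000). The gene rsp-8 encodes a splicing factor with an arginine and serine rich domain. The region in mbk-2 (109.2, chrIV:13033561-13033830), which encodes a kinase of the oocyte-to-embryo transition, was in neither list, with scores of 649 and 810, the latter just short of the threshold. Across the regions in the list of replicate 1 only, the median score in replicate 2 was 407, and across those in the list of replicate 2 only the median score in replicate 1 was 222.

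The windows at the summits were rich in G and C, compared with other regions and more so with coding sequence. The median window held 49.5% G and C (quartiles 44.6 and 55.4%, range 30.7 to 70.3%), against 47.5% (40.1 to 53.5%) for the other regions. At 50% or more lay 47.2% of coding-exon windows and 36.6% of the others, an odds ratio of 1.55 (Fisher's exact test, p = 0.0021). The regions were chosen in coding exons, which are richer in G and C than introns, so this comparison is not independent of the choice. Singly, the difference passed against intergenic regions (36%, exact adjusted p = 0.015) and not against promoters (39.5%, 0.075) or introns (38%, 0.075). By the same exact test it did not pass within the conservative list (43.6 against 36.9%, p = 0.12) or among regions above the median signal (50.5 against 41.7%, p = 0.14).

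The difference from coding sequence at large was wider. Consecutive windows of the same length laid over all coding sequence outside promoters, 198922 in number, had a median of 40.6% (36.6 to 45.5%). At or above that median lay 241 of 271 coding-exon windows (88.9%, Wilson interval 84.6 to 92.1%), against 55.2% of the consecutive windows, many of which tie at the median (exact binomial test, p = 4.0e-33). Part of this was shared by the whole host gene: the coding sequence of the host genes had a median of 46.6% G and C, against 42.4% for all genes that could hold a region and 42.6% for the gene that holds the median coding base. The summit windows were richer than their own gene as well, in 195 of 271 (72.0%, 66.3 to 77.0%), by 2.96 percentage points at the median (exact sign test, p = 3.2e-13). Where only the own list of replicate 1 was used this was 65.0% of 20 regions, which did not pass (exact p = 0.26), and in that of replicate 2 it was 70.3% of 37 (exact p = 0.020).

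**Figure D4:**
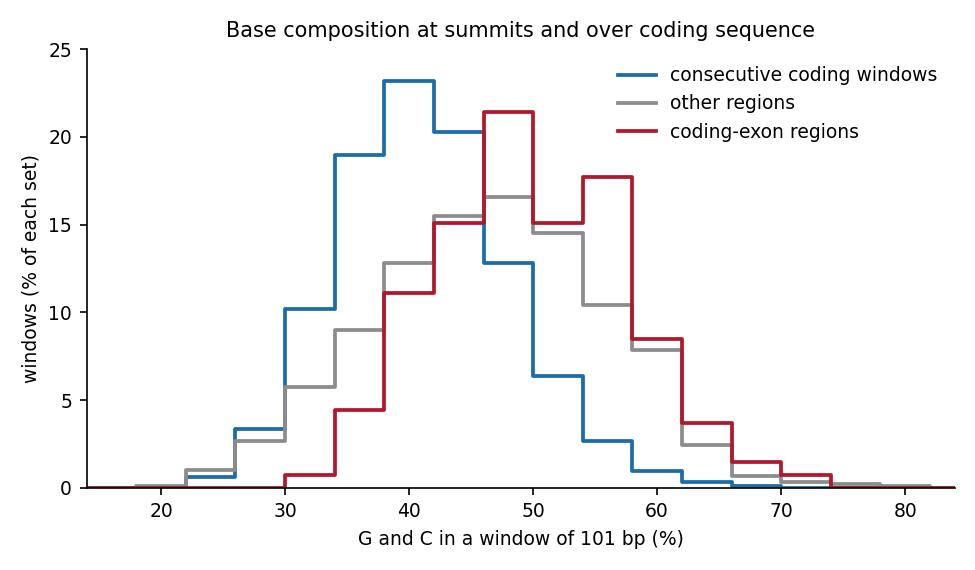
Distribution of G and C content, in percent, in windows of 50 bp to either side of a centre, as the share of each set in steps of 4 percentage points. The coding-exon regions (red) and the other regions (grey) lie to the right of the 198922 windows centred on coding bases (blue), with medians of 49.5, 47.5 and 40.6%.

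Presence in an own list showed no difference past the threshold between coding-exon regions of high and low G and C content. Of the 128 with at least 50% G and C, 20 (15.6%) were in an own list, and of the 143 below it 26 (18.2%), an odds ratio of 0.833 (Fisher's exact test, p = 0.63). Median signal was 72.9 and 72.3 in these groups. The 6 regions in both own lists had a median window content of 46.5%, those in neither 49.5%.

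Chromosome IV held a large part of the regions. On it lay 88 of 271 (32.5%, 27.2 to 38.3%), for 16.0% of the coding bases outside promoter windows (exact binomial test, adjusted p = 1.3e-10 over 6 chromosomes). Chromosomes V and X held fewer than their share, 15.1% against 21.8% (exact adjusted p = 0.016) and 8.49% against 15.5% (exact adjusted p = 0.0023). Chromosomes I (14.8 against 16.1%), II (14 against 16.2%) and III (15.1 against 14.4%) did not pass. Of the other regions outside small RNA genes 27.8% lay on IV. On V their share was close to the 15.1% of coding-exon regions, and on X it lay between 8.49 and 15.5%. The low share on V is therefore not particular to coding-exon regions. These shares of the other regions were not tested. The shares of coding-exon regions on IV, V and X differed between the replicates' own lists, which hold few of them and were not compared by a test. Where only the own list of replicate 2 was used, 56.8% of 37 coding-exon regions lay on IV (exact adjusted p = 1.1e-07), and with that of replicate 1 alone 30% of 20, which did not pass (exact adjusted p = 0.52). For V the values were 5.41% (exact adjusted p = 0.045) and 10% (exact adjusted p = 0.52), and for X 8.11 and 5.00%, neither of which passed (exact adjusted p = 0.39 and 0.52).

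**Figure D5:**
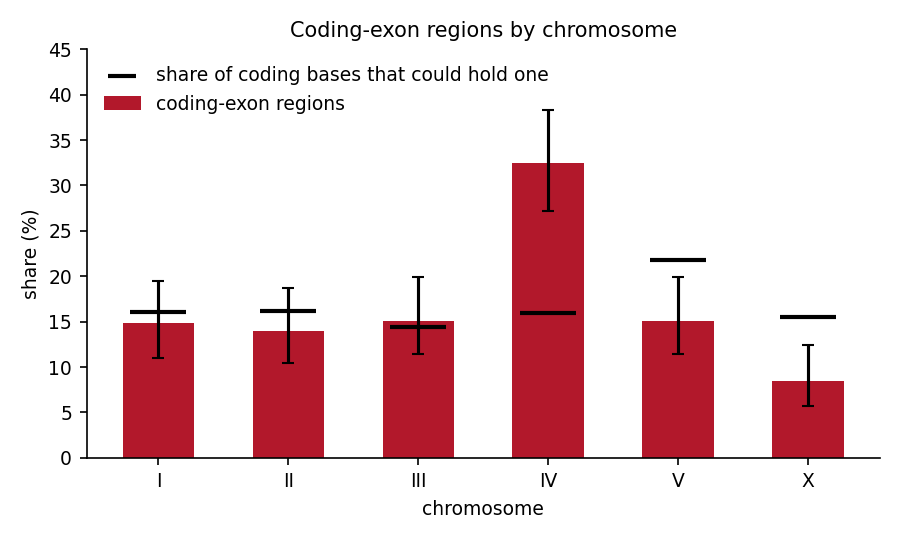
Share of the 271 coding-exon regions on each chromosome (red bars, in percent, with 95% Wilson intervals) beside the share of coding bases outside promoter windows (black marks). On IV the share was 32.5% against 16.0%, and on V and X it lay below the mark.

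On IV the regions crowded into a few stretches. Of 203 windows of 500 kb, 3 held 8 or more coding-exon regions, a limit chosen after the counts were seen, and all were on IV. They held 22 regions at 13000001 to 13500000, 18 at 12000001 to 12500000 and 8 at 14000001 to 14500000, where the share of coding bases would give 1.23, 1.72 and 1.01. The same windows held 45, 32 and 17 other regions. Of these 48 coding-exon regions, 4 were in the own list of replicate 1 and 11 in that of replicate 2. Of all 271 it was 19 (7.01%) and 33 (12.2%), so in replicate 2 the share was higher in these windows. This was not tested. Outside the 3 windows IV held 17.9% of the coding-exon regions for 14.8% of the coding bases. With all of IV left out, the shares in the own lists were 6.56% against 17.7% and 8.20% against 22.8%, so the shortfall in the own lists was as large on the other chromosomes.

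Within genes the summits leaned to the 3′ end of the coding sequence. Of the 265 that could be placed on the longest coding transcript, 46.4% lay in the last of 3 equal parts, which holds 34.1% of the coding bases outside promoter windows (exact binomial test, adjusted p = 1.2e-04). The middle part held 30.2% against 37.8% (exact adjusted p = 0.017) and the first part 23.4% against 28.1% (exact adjusted p = 0.10). Of the 12 regions of highest signal 3 lay in the first part, 3 in the middle part and 6 in the last, with Y43B11AR.3 at 9.45% of the coding sequence, F25H2.12 at 7.32% and lin-12 at 99.3%. Where only the own list of replicate 1 was used, 65.0% of 20 regions lay in the last part (exact adjusted p = 0.022), and in that of replicate 2 it was 43.2% of 37 (exact adjusted p = 0.45). The middle part passed in neither list, with 25 and 27% (exact adjusted p = 0.36 and 0.45).

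Genes with several regions were mostly on IV. Host genes had a median coding length of 1426 bp, and all genes that could hold a region 1023 bp. A longer gene has more bases to hold a summit, and counted by base the median lay in a gene of 1674 bp, against 1476 bp over the 271 regions. The hosts made up 1.36% of the 18420 genes with coding bases outside promoter windows, at 13.5 regions per Mb of such sequence. More than 1 region lay in 15 genes, and 11 of these were on IV. The muscle gene unc-22, which encodes the giant sarcomere protein twitchin, held 6 along 21969 bp of coding sequence, with signals from 58.1 to 96.1 and none in an own list. The strongest of them lay at chrIV:11982926-11983195. In hrpu-1, which encodes a protein related to the heterogeneous nuclear ribonucleoprotein U, 3 regions had signals of 101.4, 90.9 and 80. The first 2 were in the own list of replicate 2 with scores of 1000 and 907, and had scores of 79 and 182 in replicate 1. In lin-66, a gene of developmental timing, 3 regions had signals of 87.4, 87.2 and 67.3, and the weakest of these was the one in an own list, that of replicate 2 (score 845). The genes F19B6.1 and F35G2.1, also on IV, held 2 each.

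Some host genes also held a region at their own promoter. Each region in a promoter window was assigned to the gene with the nearest 5′ end. Of the 250 hosts, 16 (6.4%) were such a gene, against 1.63% of all 18420 genes. The crowding of regions on IV was not taken into account. No test was made of this share.

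Among 32 gene lists made by symbol, 24 had at least 1 host gene, and 58 of the 250 hosts fell in a list. The lists were given no test. Their counts are set beside the 1.36% of all genes that were hosts, and beside the number of regions that the rate over all coding bases would give for the length of the list. The largest count was that of the collagens, which form the cuticle and basement membranes, with 12 of 178 genes (6.74%) and 14 regions. This came to 94.7 regions per Mb, where the overall rate would give 1.99 regions. The hosts col-125, col-129, col-130, col-131 and col-132 lie on IV, the last pair with 2 regions each. The collagen genes are also rich in G and C, with a median of 54.7%, and their summit windows had a median of 60.9%. Of the 14 regions, col-131 (98.9, chrIV:13066207-13066476) was in the list of replicate 1 with a score of 929, and col-129 (79.9, chrIV:12109332-12109601) in that of replicate 2 with a score of 944. The other 12 were in no own list, as were 83.0% of all 271 coding-exon regions. All but let-2 belong to the col family of cuticle collagens, and let-2 encodes a type IV collagen of basement membranes (71.9, chrX:16381317-16381586). The highest signals after col-131 were in col-130 (84.1) and col-129.

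Genes of splicing and RNA processing had 5 hosts of 54 (9.26%) and 7 regions, where the overall rate would give 0.921. Besides hrpu-1 and rsp-8 these were prp-19 (73.2), a ubiquitin ligase of the spliceosome, uaf-1 (68.2), the large subunit of the splicing factor U2AF, and sfa-1 (68), the branch point binding protein. All 3 were in no own list, and 3 of the 7 regions of the group were in that of replicate 2. Of the 7, the 3 in hrpu-1 lay on IV.

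Yolk protein genes, expressed in the adult intestine, held 4 regions in 2 of 6 genes, where the overall rate would give 0.378. Besides the region of vit-6 in both own lists, a second one in vit-6 had a signal of 72.3, and vit-2 had regions of 80.8 (in the list of replicate 2, score 1000) and 65.6. Both windows of vit-2 had a near-identical copy elsewhere. The symbol list of muscle genes had 3 hosts of 56 with 8 regions, where the overall rate would give 3.17. Of these regions 6 were in the single gene unc-22 on IV. The other hosts were myo-3 (64.5), a myosin heavy chain, and act-5 (72.4), an actin of the intestinal microvilli that is in the list by its symbol. None of the 8 regions was in an own list.

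Enzymes of lipid metabolism gave 4 hosts of 95 with 1 region each, where the overall rate would give 1.73. They were cpt-1 (88.0), a carnitine palmitoyltransferase, acs-20 (77.6), an acyl-CoA synthetase in the list of replicate 1 with a score of 903, fat-1 (75.6), an omega-3 fatty acid desaturase, and elo-5 (33.1), a fatty acid elongase. The region in elo-5 had the lowest signal of all 271. In fat-1 the scores were 809 and 60, the first of them just under the threshold. Cytoskeletal genes had 3 hosts of 65 with 4 regions, near the 3.09 of the overall rate. They were vab-10 (2 regions, 86.9 and 77.2), a spectraplakin, dhc-1 (72.7), the heavy chain of cytoplasmic dynein, and unc-44 (67.1), an ankyrin.

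The other lists with a host and fewer than 3 of them held 1 or 2 regions each, from which nothing is read. They included hsp-110 (94.0; chaperones) and qars-1 (89.1; the glutaminyl-tRNA synthetase), each in the list of replicate 2, with scores of 917 and 1000. In no own list were ama-1 (78; the largest subunit of RNA polymerase II), top-3 (81.6; a topoisomerase), csr-1 (66.6; an Argonaute), pab-2 (76.9; a poly(A) binding protein), vha-14 (74.3; the vacuolar ATPase) and rpl-3 (50.9; the large ribosomal subunit). The germline genes glh-1 (74.9) and mex-5 (70.8) and the metabolic genes gpd-3 (69.2) and alh-8 (63.6) were also in none, and gpd-3 had a near-identical copy. The matrix genes with a region were noah-2 (78.7, in the list of replicate 2) and dig-1 (65.0). The sperm gene spe-18 had a region with a signal of 73.3. Single hosts were npr-23 (79.1), clec-2 (60.8) and nhr-61 (57.2) in the neuropeptide, lectin and nuclear receptor lists, with 160, 364 and 267 genes, where the overall rate would give 1.70, 3.23 and 3.6 regions.

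Chemoreceptor genes, a large family of receptors used in chemosensory neurons, had 6 hosts of 1353 (0.443%) with 1 region each, where the overall rate would give 13.2. They were led by srt-47 (82.2), str-113 (76.5) and srx-125 (72.3), with none in an own list. Their coding sequence had a median of 37.2% G and C. Detoxification genes had 3 of 240 (1.25%), a share near that of all genes, in gst-1 (83.2), ugt-13 (64.6) and ugt-65 (64.3). The symbol lists of 421 F-box and MATH genes and 180 ion channel genes held no host, where the overall rate would give 4.12 and 4.56 regions. The lists of homeobox, nuclear pore, proteasome and ubiquitin, bZIP, respiratory chain and histone genes held none either, but are too short to read, since the overall rate would give 0.0188 to 1.10 regions. Lists by symbol also miss genes. The hosts ufd-2 (65.1) of the ubiquitin pathway and ndua-7 (64.4), a subunit of respiratory complex I, were in no list. Nor were xbp-1 (80.7) and atfs-1 (81.5), which encode bZIP factors of the unfolded protein responses of the endoplasmic reticulum and of mitochondria. All 4 were in neither own list. They were singled out after the hosts had been seen.

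Few summits held the site that C/EBP proteins bind. TTRCRYAA (R for A or G, Y for C or T) was in 1 of 271 windows (0.369%, Wilson interval 0.0652 to 2.06%), against 1.88% of the consecutive coding windows (exact binomial test, p = 0.070, adjusted p = 0.25 over 14 motifs). The region was in sra-35, a chemoreceptor gene, with a signal of 69.1 and scores of 343 and 147. Its window is printed with the match in capitals, on the strand of the gene.
sra-35 (chrII:4526059-4526159, minus strand): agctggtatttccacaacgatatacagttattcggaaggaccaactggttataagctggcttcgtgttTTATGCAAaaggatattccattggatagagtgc
Its form TTGCATAA accounts for that match. The forms TTGCGCAA, TTACGTAA and TTGCGTAA were in no window, which allows a share of up to 1.11% (3 counts of 271), and were in 0.0754, 0.0387 and 0.110% of coding windows, so a shortfall was not detectable. All motifs were sought on both strands.

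None of the 14 motifs passed the test, and 1 had an unadjusted p under 0.05. This was the E-box CACGTG, the site of basic helix-loop-helix proteins, in 13 windows (4.80% against 2.48%, exact p = 0.028, adjusted p = 0.25). The GATA factor site TGATAAR was in 2.21% against 4.72% and the run TTTTTTTT in 1.11% against 2.51% (exact adjusted p = 0.25 and 0.48). The bZIP sites TGATGCAA (0.682% of coding windows), TGACGCAA (0.170%), TGACGTCA (0.579%) and TGACTCA (0.899%) were each in 1 window. The words ACCACTCG and CCACTCGG, which overlap by all but 1 base, were in 1 and 2 windows, for 0.177 and 0.157% of coding windows. With windows of 100 bp to either side 3 motifs passed: CACGTG (8.49 against 4.69%, exact adjusted p = 0.027), TGATAAR (4.80 against 9.66%, 0.027) and TTTTTTTT (2.95 against 8.50%, 0.0059). In the conservative list TGATAAR passed, with 0 windows against 4.72% (exact adjusted p = 0.0042). The G and C content of the windows was not held equal in these tests.

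The limits of the promoter window cut close to some regions. Within 100 bp of a limit lay 22 of the 271. After Y43B11AR.3 the nearest inside were Y18D10A.4 (58.5, 5 bp beyond the downstream limit) and suco-1 (65.3, 5 bp beyond the upstream limit of R12E2.13), both in no own list. The nearest coding-exon summits left out by the promoter window were in tmem-107 (79.0, 14 bp within the limit of rps-26, in the list of replicate 2), rla-1 (89.3, 15 bp) and Y34D9A.8 (73.1, 16 bp), the latter pair in no own list.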

How the data were processed

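Per the labels, chromatin was sonicated to fragments of 200 to 800 bp. Per the file headers, peaks lie on build ce11, and the authors deposited lists ranked and lists thresholded by IDR, for each replicate and for both together. The sources used here do not give the aligner, the peak caller or the settings. Each deposited peak carries a signal value of unstated normalization and a score, and the deposited ranked lists give the global IDR as its −log10. Depth per sample is unknown, and intervals cover the counting of regions only.

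Genes came from Ensembl release 115 and bases from the RefSeq sequence of the same assembly. Lists shared a region where at least 1 bp overlapped. Each region was compared through the ranked peak of highest signal overlapping it. Coding background was the coding sequence outside promoter windows. Tests were two-sided with a threshold of 0.05 and Benjamini-Hochberg adjustment within each family, in Python 3.11.15 with scipy 1.17.1 and statsmodels 0.14.6. The logistic fit was tested on simulated data. Copies were sought with BLAST 2.17.0. Named were the 12 members of highest signal, those in both own lists, up to 3 a gene list, the 5 genes with most members, those nearest the promoter limits and those with a C/EBP site. One gene under this rule is not reported here. Other hosts (the rest of the lists with 3 to 5 hosts or 6 genes, let-2 and those in no list) were named after their values were seen. The members and lists were chosen with earlier results of these data known. Symbol patterns of the gene lists were corrected after first counts, since some matched unrelated genes, and ptr genes, with 1 host, left the matrix list then.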

Additional observations from a re-analysis of the deposited data

How the results depend on the processing

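Of 135 alternative values for 21 results under 13 settings, 109 kept their direction and side of the threshold (counts within 1.5 times). The lower shares in both own lists and in the conservative list, the lower signal and the higher G and C than coding sequence did so under every setting run on them. The number of regions was 179 in the conservative list and 95 above the median signal, and 20 to 37 where 1 replicate's own list replaced the main list. In the conservative list the G and C difference from other regions (43.6%), chromosome V (15.1%) and the middle part of coding sequence (30.9%) no longer passed and 1 motif passed. Above the median signal the G and C difference (50.5%) and V (13.7%) no longer passed. Peaks left unjoined gave an odds ratio of 0.589 at equal signal, now past the threshold, with overlapping peaks that are not independent. Windows of 100 bp to either side gave 3 motifs. Without chromosome IV, a setting chosen after seeing the data, the middle part of coding sequence (30.9%) no longer passed. Under a promoter window cut to 500 bp upstream, the shares on I (16.3%) and III (14%) changed sides. With 1 replicate left out, the share of windows richer than the host gene was 65.0 to 70.3%, on IV 30 to 56.8%, on V 5.41 to 10%, on X 5.00 to 8.11%, on III 8.11 to 25%, and in the first, middle and last part of coding sequence 10 to 29.7%, 25 to 27% and 43.2 to 65.0%. These sets are small. Without replicate 2, IV, V, X, the middle part and the comparison with the host gene no longer passed, and without replicate 1 X, the middle and the last part no longer passed and the first part (29.7%) and III (8.11%) changed direction. Some of these settings tested fewer regions, and the cause of the changes was not tested. No paired analysis was possible because there is 1 group. The peak lists used here give no read counts, so the depth behind absent calls is unknown.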

Other observations

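A word of 6 bases, GGAGCC or its reverse complement, was in 47 of 271 coding-exon summit windows (17.3%, 95% Wilson interval 13.3 to 22.3%) and in 4.43% of the consecutive coding windows. It had been picked as the most overrepresented of all words of 6, 7 and 8 bases in these windows, so its counts are a description without a test. Outside collagen genes it was in 40 of 257 windows (15.6%). Among windows with at least 50% G and C it was in 28.1% of coding-exon windows and 14.9% of the coding windows. Whether it occurs as often at summits in another experiment was not tested.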
